A study of Mus musculus with 4 samples.

Results

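The messages of 10 genes of the transforming growth factor beta (TGF-beta) system were followed in RNA that came down with an antibody against DDX20, the source being the testis of C57BL/6 mice aged 7 days. They are the ligand genes Tgfb1, Tgfb2 and Tgfb3, the type I receptor genes Tgfbr1, Bmpr1a and Acvr1, the type II receptor genes Tgfbr2, Bmpr2 and Acvr2a, and the co-receptor gene Tgfbr3. They were taken by symbol, after matching Ensembl identifiers to the GENCODE M21 annotation, and all 10 were found among the 55357 genes of the count table and among the 17422 genes that passed the filter on low counts. The study made 2 libraries of RNA immunoprecipitated with the DDX20 antibody (DDX20 RIP) and 2 libraries of input RNA, the input being 10% of the total RNA. No genotype, treatment or sort is given, so both groups hold RNA of mixed testis cells of this strain, and the cells were crosslinked with ultraviolet light before lysis. DDX20, also named Gemin3, is a DEAD-box RNA helicase of the SMN complex, which assembles small nuclear ribonucleoproteins. The antibody's catalogue number is written with 1 character changed between the RIP libraries, and no precipitation with an unrelated antibody was used here. A higher level therefore says that a message was more frequent after precipitation, and does not show that DDX20 bound it.

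TGF-beta family ligands are secreted dimers that bring type II and type I receptors together. The type II receptor, a serine/threonine kinase, phosphorylates the type I receptor, which then phosphorylates Smad transcription factors, and betaglycan, the product of Tgfbr3, presents ligand to the signalling receptors and also binds inhibin. In the immature mouse testis, activin and inhibin act on dividing Sertoli cells, BMP4 acts on spermatogonia, and anti-Müllerian hormone signals through the type II receptor AMHR2 together with the BMP type I receptors encoded by Acvr1 and Bmpr1a.

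The RIP libraries summed to 38458014 and 37927689 counts and the input libraries to 21913977 and 21416567. Markers of germ, Sertoli, Leydig, peritubular myoid, endothelial, macrophage and red blood cells were present in each library, with Sertoli markers the most abundant of these lists at a summed 2170 CPM (counts normalised to library size with TMM factors, the trimmed mean of M-values) in each RIP library, against 3500 and 3460 CPM in the input libraries. Germ cell markers summed to 197 and 199 CPM in RIP, against 436 and 419 CPM in input. Beside 38.6% of all tested genes called lower, the marker genes called lower in RIP were 7 of 7 Leydig, 6 of 9 Sertoli, 5 of 9 germ cell, 5 of 5 macrophage, 4 of 4 red blood cell, 4 of 6 endothelial and 2 of 5 myoid genes, while 2 Sertoli, 3 germ cell and 1 endothelial gene were higher. Their part in the values of the TGF-beta genes was not tested. A lower marker says that its message was less frequent after precipitation than in input, and gives no count of cells. Ddx20 itself was at 80.4 ± 3.96 CPM in RIP and 41.3 ± 0.104 CPM in input (SD, n = 2 each).

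The SMN complex loads Sm proteins onto small nuclear RNAs at a U-rich Sm site whose core reads AUUUNUG, so the letters ATTTNTG were searched in the M21 transcript of each gene, a search chosen after the data had been seen. The most U-rich spelling, ATTTTTG, which was not counted over all tested genes, occurred in 7 of the 10 transcripts, always in the part after the stop codon. Its first occurrence in each is shown with 10 bases either side, in the sense of the message with T for U, coordinates being GRCm38 and capitals marking the matched letters; the stretch of Bmpr1a, which was not called in the comparison of RIP with input, stands beside those of 6 genes that were called higher.
Tgfb3 (chr12:86056802-86056828, minus strand): ataaataaatATTTTTGgggaatcatg
Tgfbr1 (chr4:47413847-47413873, plus strand): ccatgtagccATTTTTGtaatccatac
Bmpr1a (chr14:34413723-34413749, minus strand): tttggtaattATTTTTGttataaaaag
Tgfbr2 (chr9:116089379-116089405, minus strand): actgtgtttaATTTTTGtcgctctgct
Bmpr2 (chr1:59872361-59872387, plus strand): cttaatatatATTTTTGtcttctaaca
Acvr2a (chr2:48901349-48901375, plus strand): tgttatatacATTTTTGttgagtcact
Tgfbr3 (chr5:107107684-107107710, minus strand): tgtggttaaaATTTTTGtaatatattt

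Counting every spelling of ATTTNTG, 8 of the 10 transcripts held at least 1 match, with 26 matches after the stop codon, 8 in coding sequence and 1 before the start codon. Bmpr2 held 8, Tgfbr1, Bmpr1a and Acvr2a 6 each, Tgfbr3 4, Tgfb2 and Tgfb3 2 each and Tgfbr2 1. Acvr1 and Tgfb1 held none. The reverse complement, CANAAAT, was found in 9 of the 10. Among 14686 tested genes with a coding transcript 60.2% held the sense match and 55.1% the reverse complement. Among the 1365 whose transcripts measure 5000 to 6500 nt, as 5 of the 10 do, 86.3% held the sense match. Among the 4778 of 2000 to 3500 nt, the class of Acvr1, Tgfbr2, Tgfb3 and Tgfb1, 58.5% held it. Matches were 0.650 per kb in the 10 transcripts and 0.395 per kb in all tested coding genes, and those of the reverse complement were 0.539 and 0.341 per kb. In the classes of 5000 to 6500 nt and 2000 to 3500 nt, sense matches were 0.425 and 0.366 per kb. A match describes the letters only, and its relation to the fold change was not tested.

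All members but Bmpr1a were enriched after precipitation, and Bmpr1a did not differ beyond its error. By the quasi-likelihood test of edgeR, p-values adjusted over all tested genes by Benjamini and Hochberg's method, 9 of 10 passed an adjusted p of 0.05 and were higher in RIP. Of all tested genes 77.3% passed, with 38.7% called higher and 38.6% called lower. In these 9 genes both RIP libraries lay above both input libraries, which was so for 42.7% of all tested genes. The median log2 fold change of the 10 was 0.70, against -0.05 over all tested genes. Calls higher and lower in RIP numbered 6734 and 6727 over all genes, and 4994 and 8845 when libraries were scaled by total counts, which put the all-gene median at -0.40 and that of the 10 genes at 0.35 and left 8 of the 10 called higher, against 28.7% of all genes. Whether replicates were prepared from separate animals is not stated, and the spread behind the p-values may be technical.

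**Figure D1:**
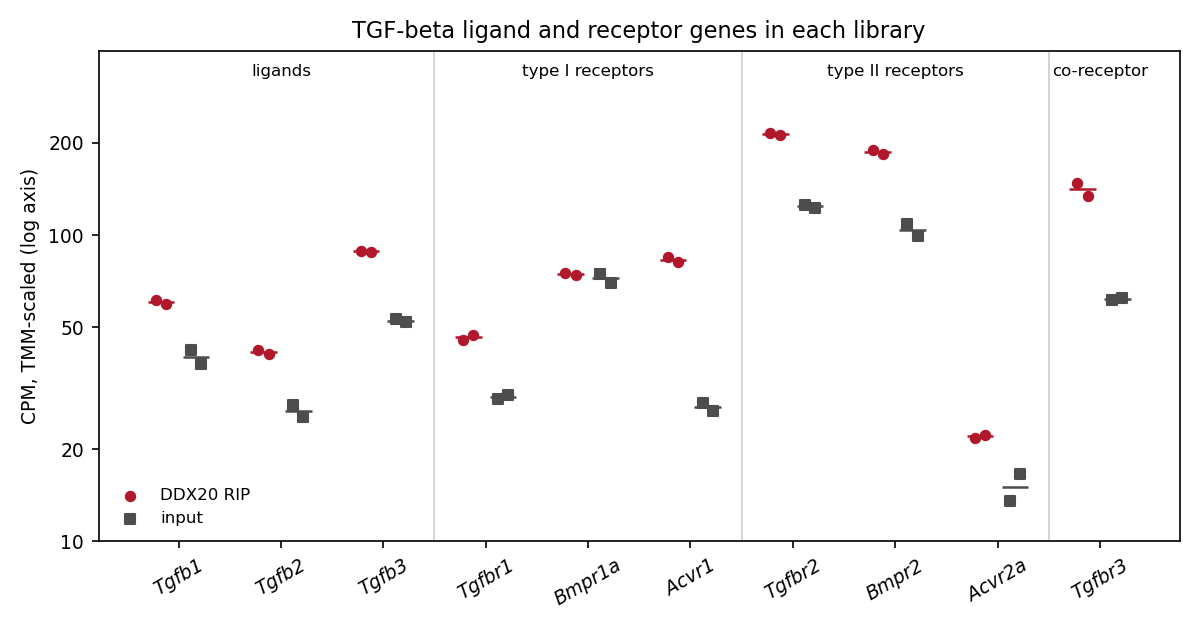
CPM after TMM scaling (log axis) of each gene in the 2 DDX20 RIP libraries (red circles) and the 2 input libraries (grey squares), grouped by role, with a bar at each group's mean. The RIP points lie above the input points in every gene except Bmpr1a, and the gap is widest in Acvr1.

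The 3 ligand genes rose by similar amounts. Tgfb1, the ligand best known for immune and matrix regulation, had 61.3 and 59.5 CPM in the RIP libraries, against 42.2 and 37.8 CPM in the input libraries. Its log2 fold change was 0.59 ± 0.0616 (SE, n = 2 libraries per group), with an edgeR adjusted p of 1.39e-10. Tgfb2, whose product needs betaglycan for efficient receptor binding, had 42.1 and 40.8 CPM in RIP, against 27.8 and 25.4 CPM in input, a log2 fold change of 0.64 ± 0.0717 (edgeR adjusted p = 9.06e-10). Tgfb3 was the most abundant of the 3 and had 88.8 and 88.0 CPM in RIP, against 53.0 and 51.8 CPM in input, a log2 fold change of 0.75 ± 0.0494 (edgeR adjusted p = 1.05e-15). The groups did not overlap in any of the 3 genes, and the fold changes of Tgfb1 and Tgfb2 differed by less than their standard errors. Counts set against each other within a library need no scaling between libraries. On this measure Tgfb3 made up 46.2% and 46.7% of ligand counts in RIP and 43.1% and 45.1% in input, Tgfb1 31.9% and 31.6% in RIP and 34.3% and 32.9% in input, and Tgfb2 21.9% and 21.7% in RIP and 22.6% and 22.1% in input.

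Among the type I receptors, the kinases that pass the signal to Smads, Acvr1 and Bmpr1a were at opposite ends. Acvr1, also called ALK2, had 85.0 and 81.4 CPM in the RIP libraries, against 28.4 and 26.5 CPM in the input libraries. This was a 3.03-fold difference and the largest among the 10 genes, with a log2 fold change of 1.60 ± 0.0596 and an edgeR adjusted p of 1.03e-22. It stood above 94.9% of all tested genes. Bmpr1a, also called ALK3 and the receptor through which BMP4 acts on mouse spermatogonia, had 75.5 and 74.1 CPM in RIP, against 74.8 and 69.7 CPM in input. Its groups overlapped and its log2 fold change was 0.05 ± 0.0492 (edgeR adjusted p = 0.356). The value of Bmpr1a depends on the scaling: with total counts it was -0.30 and with upper-quartile scaling -0.29, and it was then called lower. Tgfbr1, also called ALK5, the type I receptor of the TGF-beta ligands, lay between them with 45.5 and 47.3 CPM in RIP, against 29.1 and 30.1 CPM in input, a log2 fold change of 0.65 ± 0.0670 (edgeR adjusted p = 1.29e-10).

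Within each library the make-up of the type I receptor counts shifted between Acvr1 and Bmpr1a while the share of Tgfbr1 did not separate the groups. Acvr1 held 41.3% and 40.1% of these counts in RIP and 21.4% and 21.0% in input. Bmpr1a held 36.6% and 36.5% in RIP and 56.5% and 55.2% in input, and Tgfbr1 held 22.1% and 23.3% in RIP and 22.0% and 23.8% in input. Acvr1 had 1.13 and 1.10 counts for each Bmpr1a count in the RIP libraries, against 0.379 and 0.381 in the input libraries. This ratio is the same under every scaling of whole libraries, so the unequal recovery of the pair does not rest on that choice. Acvr1 and Bmpr1a had the highest and lowest log2 fold changes of the members. The shift in their ratio therefore restates the difference between those fold changes and is no separate result. How many gene pairs differ as much was not counted. The ratio takes no account of length, and the main transcripts measure 3293 nt in Acvr1 and 5956 nt in Bmpr1a. An exact permutation test on 2 against 2 libraries cannot reach 0.05, and no p is given for the ratio.

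**Figure D2:**
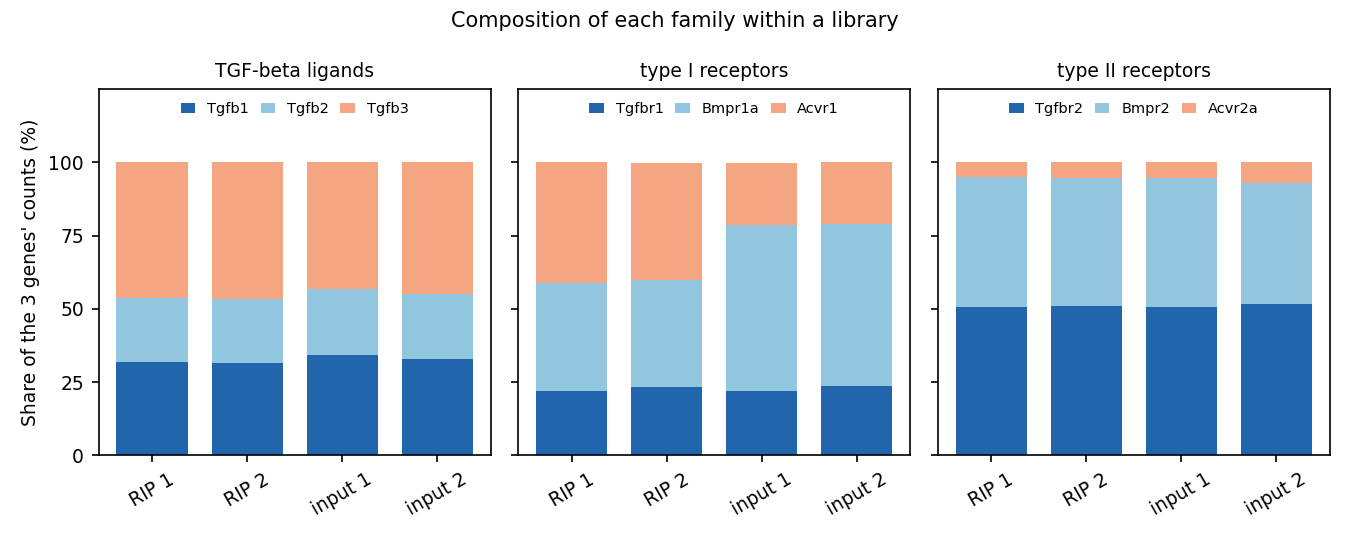
Share (%) of the summed counts of each family's 3 genes that each gene held, in RIP libraries 1 and 2 and input libraries 1 and 2. In the middle panel Acvr1 takes 41.3% and 40.1% in RIP against 21.4% and 21.0% in input, while the ligand and type II panels shift by a few percentage points at most.

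The type II receptors, which bind ligand and activate the type I receptors, all rose with TMM scaling. Tgfbr2, the type II receptor of the TGF-beta ligands, had the most counts of the 10 genes, with 216.1 and 212.7 CPM in the RIP libraries, against 125.8 and 122.9 CPM in the input libraries. Its log2 fold change was 0.79 ± 0.0349 (edgeR adjusted p = 1.72e-20). Bmpr2, the BMP type II receptor with a long cytoplasmic tail, had 189.1 and 183.9 CPM in RIP, against 109.1 and 99.1 CPM in input, a log2 fold change of 0.84 ± 0.0403 (edgeR adjusted p = 1.50e-19). The groups of both genes were far apart. Acvr2a, a receptor for activins, had the fewest counts, with 21.8 and 22.3 CPM in RIP, against 13.5 and 16.6 CPM in input. Its 2 input libraries differed more from each other than its RIP libraries did, and its log2 fold change was 0.55 ± 0.0964 (edgeR adjusted p = 5.10e-06). With total counts it was 0.20 and was not called (edgeR adjusted p = 0.0580). Within the family, Tgfbr2 held 50.6% and 50.8% of counts in RIP and 50.6% and 51.5% in input, Bmpr2 44.3% and 43.9% in RIP and 43.9% and 41.5% in input, and Acvr2a 5.10% and 5.32% in RIP and 5.45% and 6.96% in input.

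Tgfbr3, which encodes betaglycan, rose second most after Acvr1. It had 148.2 and 133.9 CPM in the RIP libraries, against 61.2 and 62.4 CPM in the input libraries, a 2.28-fold difference. Both RIP values exceeded both input values by a wide margin, although the RIP libraries differed from each other more than in any other of the 10 genes (SD 10.1 CPM). The log2 fold change was 1.19 ± 0.0470, with an edgeR adjusted p of 5.41e-22. Acvr1 and Tgfbr3 were the members that passed a fold change of 2 as well as the test, as did 17.1% of all tested genes. Tested against a change of 1.5-fold, Acvr1, Tgfbr3, Bmpr2, Tgfbr2 and Tgfb3 were called, against 24.2% of all genes called higher in that test.

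Levels were compared between genes per kb of annotated exon. In RIP the order was Tgfbr2 (26.2 ± 0.297 CPM per kb, SD, n = 2), Tgfb3 (26.1 ± 0.178), Tgfbr3 (21.6 ± 1.55), Acvr1 (17.2 ± 0.523), Tgfb1 (12.0 ± 0.252), Bmpr1a (11.8 ± 0.148), Bmpr2 (10.4 ± 0.203), Tgfb2 (7.15 ± 0.162), Tgfbr1 (7.10 ± 0.199) and Acvr2a (3.88 ± 0.0627). The libraries of Tgfbr2 and Tgfb3 overlapped, as did those of Tgfb1 and Bmpr1a and those of Tgfb2 and Tgfbr1. In input Tgfb3 (15.5 ± 0.247 CPM per kb) and Tgfbr2 (15.2 ± 0.246) came first and overlapped, followed by Bmpr1a (11.4 ± 0.573), Tgfbr3 (9.44 ± 0.133) and Tgfb1 (7.93 ± 0.616). Bmpr2 (5.79 ± 0.393) and Acvr1 (5.69 ± 0.269) overlapped, as did Tgfb2 (4.60 ± 0.296) and Tgfbr1 (4.53 ± 0.104), and Acvr2a (2.65 ± 0.381) was again last. Per kb of exon Acvr1 was thus the fourth in RIP and the seventh in input, and Bmpr1a the sixth in RIP and the third in input. The length used changes this order. Per kb of the main transcript, Tgfbr2 (8187 nt of annotated exon but a transcript of 3476 nt) stood at 61.7 CPM in RIP and 35.8 CPM in input, and Tgfb1 moved to the second place in both, at 27.8 CPM in RIP and 18.4 CPM in input. On that measure Acvr1 (25.3 CPM in RIP and 8.34 CPM in input) was the fourth in RIP and the sixth in input, and Bmpr1a (12.6 CPM in RIP and 12.1 CPM in input) the seventh in RIP and the fourth in input.

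By their annotated spans, Acvr1 (ENSMUSG00000026836.16) lies on chromosome 2 from 58388644 to 58567157, Acvr2a on the same chromosome from 48814109 to 48903269, Bmpr1a (ENSMUSG00000021796.16) on chromosome 14 from 34410734 to 34503341, Tgfbr3 on chromosome 5 from 107106570 to 107289629 and Bmpr2 on chromosome 1 from 59763400 to 59879014 (GRCm38). Tgfb2 lies on chromosome 1 from 186622792 to 186705989, Tgfbr1 on chromosome 4 from 47353222 to 47414931, Tgfb1 on chromosome 7 from 25687002 to 25705077, Tgfbr2 on chromosome 9 from 116084293 to 116175360 and Tgfb3 on chromosome 12 from 86056745 to 86079041. The library kit does not mark strand, so reads of exons shared with a neighbour cannot be assigned. Acvr2a shares 446 nt (7.84% of its exons) with Orc4 on the opposite strand, a gene of the origin recognition complex that stood at 23.0 ± 2.88 CPM in RIP and 29.2 ± 0.894 CPM in input. Tgfb3 shares 257 nt with Gm48008 and 163 nt with Gm37804, Bmpr1a 290 nt with Gm17110, Tgfb2 124 nt with Gm29491, and Tgfbr3 297 nt with Gm43422, none of which is annotated as coding. No exon overlap was annotated for Acvr1, Bmpr2, Tgfbr1, Tgfbr2 or Tgfb1.

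Message length went with the fold change over all genes, and the members were set beside genes of like length. Across 14686 tested coding genes, Spearman's rho between coding length and log2 fold change was 0.637 (Pearson's r 0.443), and across the 10 members it was 0.370 (Pearson's r 0.265), as a description over genes that share the same 4 libraries. With transcript length rho was 0.582 over all tested coding genes (Pearson's r 0.424) and 0.0303 over the members (Pearson's r -0.0755). The coding sequence of Acvr1 measures 1530 nt and that of Bmpr1a 1599 nt. Among the 2130 tested genes with 1400 to 1800 coding nt, the median log2 fold change was 0.29 and 98.8% lay below Acvr1, while 36.9% lay below Bmpr1a, 80.0% below Tgfbr2, 73.1% below Tgfbr1 and 66.9% below Acvr2a. Ligand genes have short coding sequences, from 1173 nt in Tgfb1 to 1245 nt in Tgfb2. Of the 2149 genes with 1000 to 1300 coding nt, whose median was -0.09, 88.4% lay below Tgfb3, 84.8% below Tgfb2 and 83.4% below Tgfb1. Bmpr2, with 3117 coding nt, lay above 45.3% of 1365 genes with 2400 to 3200 coding nt, and Tgfbr3, with 2553, above 69.4%.

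Places changed when genes were matched on the length of the whole transcript. Among 1399 tested genes with transcripts of 5000 to 6500 nt, whose median log2 fold change was 0.80, Tgfbr3 lay above 68.8%, but Tgfbr1 above 44.5%, Tgfb2 above 44.1%, Acvr2a above 40.7% and Bmpr1a above 23.2%, so these 4 were below the middle of their class. Among 5240 genes of 2000 to 3500 nt, with a median of 0.11, Acvr1 lay above 98.5%, Tgfbr2 above 82.1%, Tgfb3 above 80.6% and Tgfb1 above 73.8%. Bmpr2 lay above 45.8% of 72 genes of 12000 to 14000 nt. Acvr1, Tgfbr2, Tgfb3, Tgfb1 and Tgfbr3 were thus above the middle of their class by either length, and Tgfb2, Tgfbr1 and Acvr2a by coding length alone.

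**Figure D3:**
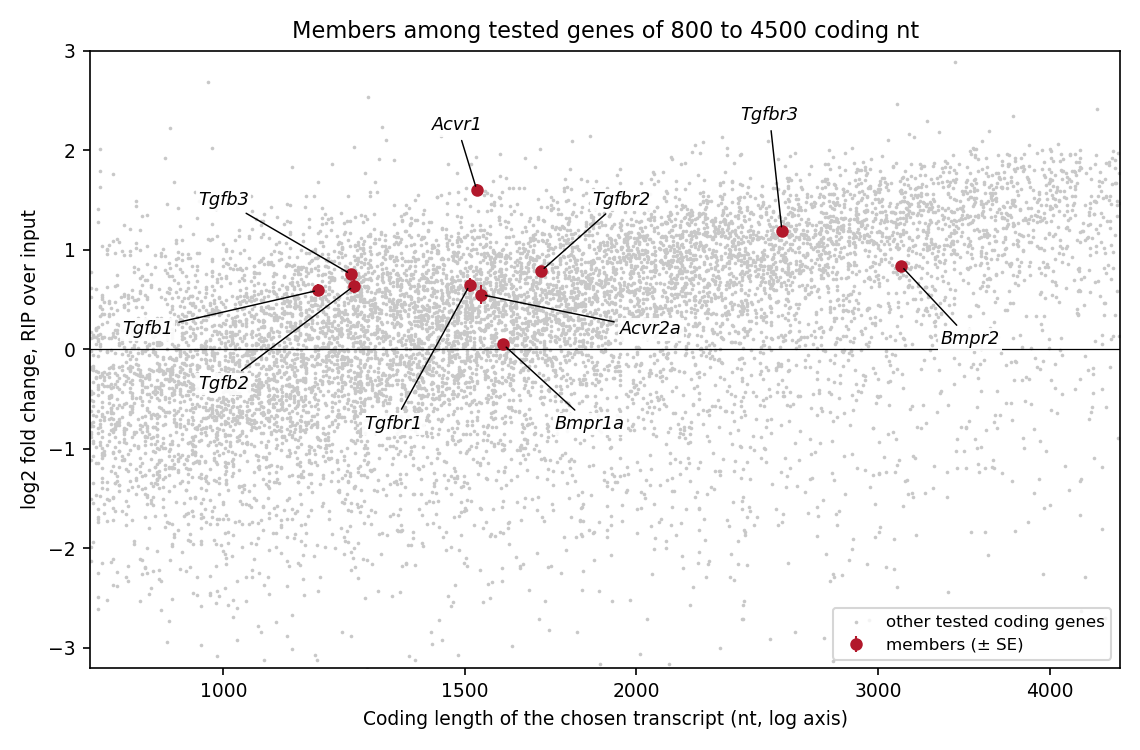
log2 fold change (RIP over input) against coding length in nt (log axis) for tested genes with 800 to 4500 coding nt (grey; 35 genes lie below and 2 above the plotted range) and for the 10 members (red, ± SE). Acvr1 sits near the upper edge of genes of its length, and Bmpr2 and Bmpr1a lie in the lower part of the cloud at their lengths, above 45.3% and 36.9% of like genes.

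Fits with a smooth offset for length gave other values for some members. The all-gene median log2 fold change moved as well, from -0.05 without an offset. It was 0.13 with the coding-length offset, 0.10 with the transcript-length offset and 0.09 with the exon-length offset. After an offset for coding length 8 members were called higher and 1 lower, against 44.7% and 29.2% of 14686 genes. Acvr1 stood at 1.48, Tgfbr3 at 0.56 (1.19 without the offset) and Tgfb3, Tgfb1 and Tgfb2 at 0.83, 0.74 and 0.71, whereas Bmpr2 stood at 0.038 and was not called (edgeR adjusted p = 0.387) and Bmpr1a was called lower at -0.10 (edgeR adjusted p = 0.0490). With an offset for the length of the whole transcript, chosen after the data had been seen, Acvr1 stayed at 1.46, Bmpr2 (12899 nt, of which 8529 follow the stop codon) stood at -0.24 and Bmpr1a at -0.61, both called lower, and Tgfbr1 (0.012), Tgfb2 (0.11) and Acvr2a (-0.076) were not called. In that fit 5 members were called higher and 2 lower, against 40.9% and 27.8% of 17357 genes. An offset for exon length called 8 members higher and 2, Bmpr1a and Bmpr2, lower, against 40.5% and 29.8% of the same genes.

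**Figure D4:**
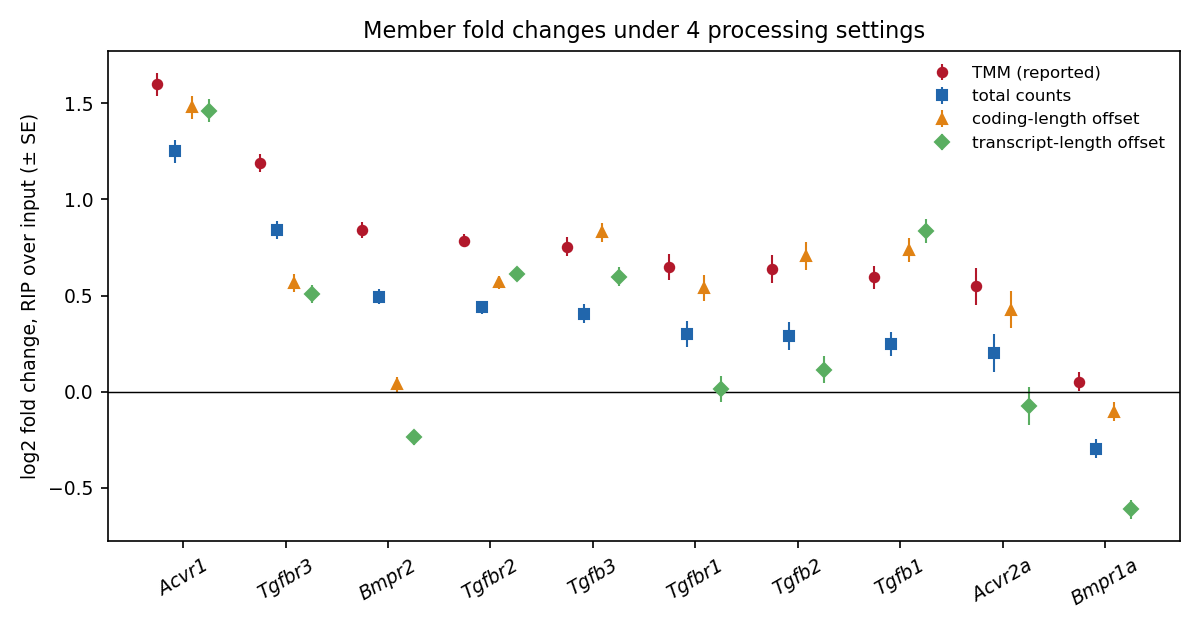
log2 fold change (RIP over input, ± SE) of each member with TMM scaling, with total counts and with offsets for coding or transcript length, ordered by the TMM value. Acvr1 lies between 1.25 and 1.60 in all 4, whereas Bmpr2 and Bmpr1a fall to -0.24 and -0.61 with the transcript-length offset.

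The other genes of the pathway were described from lists of ligands, receptors, Smads, extracellular and intracellular regulators and target genes, 96 of whose 116 genes were tested. Of these 59 were called higher and 20 lower with TMM scaling, against 38.7% and 38.6% of all tested genes. With total counts 42 were higher and 35 lower, against 4994 and 8845 of all 17422 tested genes. The other receptors included close relatives of the members. Acvr1b, also called ALK4 and an activin type I receptor, had 48.0 and 46.1 CPM in the RIP libraries, against 21.4 and 21.8 CPM in the input libraries, a log2 fold change of 1.12 ± 0.0713 (edgeR adjusted p = 4.10e-16). Neo1, which encodes neogenin, a receptor for the BMP co-receptors of the RGM family, rose by 1.49 ± 0.0318. With 4479 coding nt, Neo1 stood at 0.42 after the coding-length offset and at 0.67 after the transcript-length offset. Rgmb, Acvr2b and Eng made up the 5 of 10 that rose (3 fell; with total counts 4 were higher and 5 lower), at log2 fold changes of 1.10, 1.06 and 0.19. Acvr2b, the second activin type II receptor gene, thus stood higher than Acvr2a (0.55), although the difference between the pair was not tested.

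Amhr2, Bambi and Acvrl1 were lower in RIP. Amhr2, the type II receptor gene of anti-Müllerian hormone, had 339.8 and 335.1 CPM in RIP, against 490.1 and 490.1 CPM in input. Its log2 fold change was -0.54 ± 0.0265 (edgeR adjusted p = 3.31e-19). After the offsets for exon, coding and transcript length Amhr2 was at 0.10, -0.76 and -0.16. Bambi, a pseudoreceptor that dampens signalling, had 18.1 and 19.6 CPM in RIP, against 37.9 and 41.7 CPM in input (log2 fold change -1.07 ± 0.0779), and Acvrl1, the endothelial type I receptor ALK1, stood at -0.56. Bmpr1b (-0.073) and Rgma (-0.19) were not called.

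Of 16 tested ligand genes other than the TGF-betas, 6 were called higher and 6 lower, each close to the share over all genes (38.7% and 38.6%), with a median of -0.54. With total counts 3 were higher and 9 lower, against 4994 and 8845 of all 17422 tested genes. Some of the genes called, in either direction, were under 1 CPM in both groups. With a filter of CPM 1 in at least 2 libraries 4 were higher and 5 lower. The hormone genes of Sertoli cells were the most abundant that fell. Amh had 156.4 and 162.2 CPM in RIP, against 376.2 and 363.6 CPM in input (log2 fold change -1.22 ± 0.0315), and Inha, the inhibin alpha subunit, had 286.0 and 277.6 CPM in RIP, against 644.9 and 643.7 CPM in input (-1.19 ± 0.0267). They fell together with most of the Sertoli marker list, of which they are also members. The fall depended on the length offset. Inha and Amh stood at -0.30 and -0.42 with the exon-length offset and at -0.50 and -0.67 with the transcript-length offset. With the coding-length offset they stood at -0.96 and -1.41. Bmp4 rose, with 40.6 and 38.8 CPM in RIP, against 19.2 and 21.9 CPM in input (0.95 ± 0.0776), and Inhbb, the activin B subunit, stood at 0.21 ± 0.0534 with TMM scaling and at -0.14 with total counts. Bmp6, Bmp8b, Bmp2 and Gdf10, each under 4 CPM, were not called.

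Smads and their membrane anchors were higher in 8 of 10 cases and lower in 0, with a median of 0.82. With total counts 6 were higher and 1 lower. Of all tested genes 38.7% were called higher and 38.6% lower. With total counts 4994 (28.7%) of 17422 were called higher and 8845 lower. Smad3, which carries TGF-beta and activin signals, had 205.5 and 198.5 CPM in RIP, against 84.0 and 97.2 CPM in input, a log2 fold change of 1.16 ± 0.0457 (edgeR adjusted p = 1.27e-19). Smad5, which carries BMP signals, had 136.5 and 134.7 CPM in RIP, against 51.2 and 54.3 CPM in input (1.36 ± 0.0448). Smad9 (0.33) and Smad1 (-0.17) were not called. Of 21 intracellular regulators 18 rose, 2 fell and Tgif2 was not called, against the same all-gene shares. With total counts 15 were higher and 5 lower. The deubiquitinase gene Usp9x, with 7665 coding nt, rose by 2.21 ± 0.0272. Strap, a receptor-associated protein that is also a subunit of the SMN complex, rose by 0.34 ± 0.0353, which became -0.012 with total counts. Fkbp1a, which binds and restrains type I receptors, fell by 0.17 ± 0.0282, and the repressor gene Tgif1 by 0.27 ± 0.0797. Tgif1 lost its call without RIP replicate 2 (-0.21) or input replicate 1 (-0.21), and Fkbp1a stood at 1.10 after the coding-length offset.

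Of 18 latent complex and inhibitor genes 11 were called higher and 5 lower, against 38.7% and 38.6% of all tested genes. Total-count and upper-quartile scaling each gave 7 higher and 7 lower. Over all 17422 tested genes total counts gave 4994 higher and 8845 lower, and upper-quartile scaling gave 5022 and 8798. Ltbp3, a latent TGF-beta binding protein that tethers the ligand in the matrix, has 3762 coding nt. It had 334.7 and 327.0 CPM in RIP, against 120.8 and 119.4 CPM in input (1.46 ± 0.0328). Fstl1, a follistatin-like glycoprotein, stood at 0.26 ± 0.0281 with TMM scaling and at -0.091 with total counts. Genes that were lower included Fstl3 (-1.54 ± 0.134), which traps activin, Nbl1 (-0.19 ± 0.0425), Chrdl1 (-2.39 ± 0.203) and Sostdc1 (-3.03 ± 0.520). The last 2 were at low levels. Chrdl1 had means of 1.48 CPM in RIP and 7.79 CPM in input, and Sostdc1 0.207 CPM in RIP and 1.72 CPM in input. Lrrc32 (-0.38) and Nog (1.41, under 1 CPM) were not called. Nbl1 lost its call without RIP replicate 1 (-0.13) and stood at 0.71 after the coding-length offset. Among 21 target genes 11 were called higher and 4 lower with TMM scaling, with a median of 0.18, against the same all-gene shares. These numbers moved with the processing, as did those over all genes. With total counts 7 were higher and 8 lower, against 4994 and 8845 of all 17422 tested genes. After the coding-length offset 18 were higher and 2 lower, against 44.7% and 29.2% of 14686 genes. The matrix genes Fn1 (2.01 ± 0.0204, 7434 coding nt) and Col1a1 (1.59 ± 0.0214, 4362 coding nt) were the most abundant that rose. Tsc22d1 (-0.53 ± 0.0305), Id3 (-0.78 ± 0.0570), Id2 (-1.44) and Tgfbi (-0.64) fell. Tsc22d1 and Id3, with coding sequences of 432 and 360 nt, stood at 0.54 and 0.42 after the coding-length offset.

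**Figure D5:**
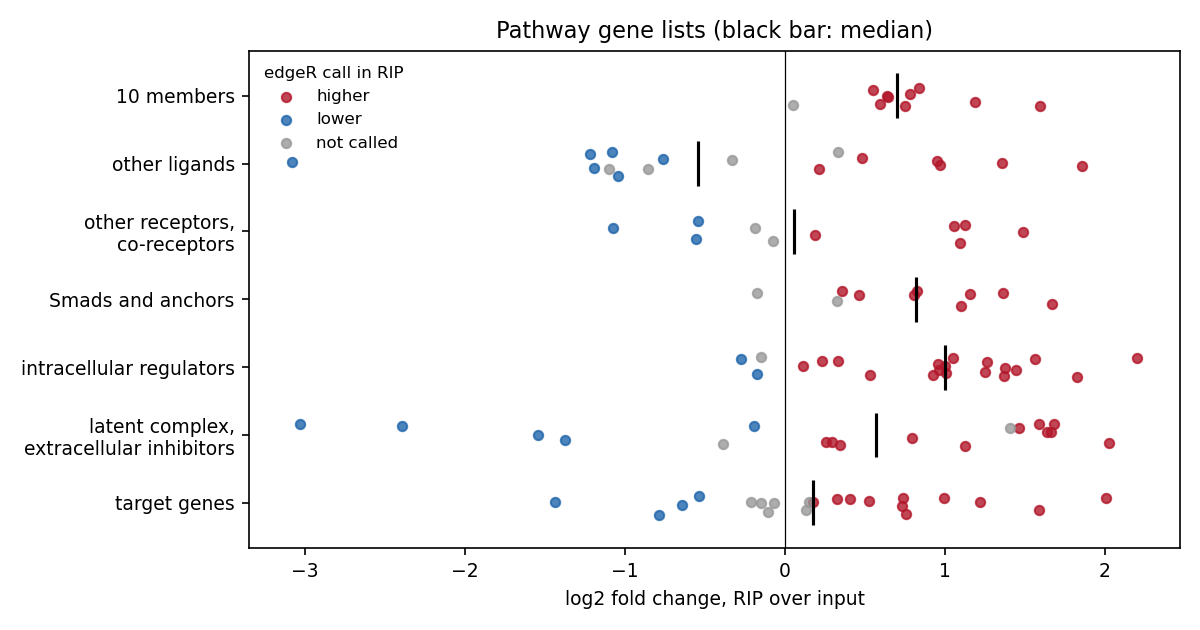
log2 fold change (RIP over input) of each tested gene in the pathway lists, 1 point per gene, coloured by its edgeR call, with a black bar at each list's median. With TMM scaling the 10 members lie above 0, with a median of 0.70. Bmpr1a lies at 0.05 (-0.30 with total counts, where the all-gene median was -0.40). The other ligands are spread over both sides with a median of -0.54.

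The pathway genes with fold changes nearest to the extreme members were found by absolute difference in log2 fold change over the 4 libraries. For Acvr1 they were Col1a1 and Chrd, an extracellular BMP antagonist, each within 0.0098 of it. Chrd had 26.8 and 28.6 CPM in RIP, against 9.16 and 9.23 CPM in input. For Bmpr1a they were Xiap, an inhibitor of apoptosis that also binds BMP type I receptors (0.12 ± 0.0487), and the cell cycle inhibitor gene Cdkn2b (0.13 ± 0.103). Xiap was called higher (edgeR adjusted p = 0.0297), lost its call without input replicate 1 (0.11), and stood at -0.23 with total counts.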

How the data were processed

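Total RNA of testis cells was sequenced as 2 DDX20 RIP and 2 input libraries, grouped by sample title. Values are unnormalised gene counts as deposited. The submitters' processing notes name STAR 2.7.2b, featureCounts, SAMtools, cutadapt 4.1 and Trimmomatic 0.36, and the build GRCm38; settings and annotation release were not given in the sources used here. In each library 65.4% to 67.4% of nonzero counts were even, a pattern that counting read mates singly would give and that overstates depth. With counts halved, the exact Poisson 95% interval of a member's count in a library extended 3.26% to 15.5% either side (counting error only).

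Symbols, lengths and coordinates came from GENCODE M21 (GRCm38), which names 52081 of 55357 identifiers; version numbers differ from the file's. Coding length, stop codon included, was read from 1 transcript per gene, picked by APPRIS rank and then by length. Genes were kept by filterByExpr, scaled by TMM and tested with edgeR 4.0.16 (robust quasi-likelihood fit) in R 4.3.3, with Benjamini-Hochberg adjustment at 0.05. SE was obtained as log2 fold change over the root of the F statistic. The fit was tested on simulated data with known changes. The members and lists were chosen with earlier results of these data known. Named genes were the members, Ddx20, in each list and direction the 2 called genes of highest mean CPM and the 2 nearest in fold change to the extreme members; other genes in counts of 5 or fewer and overlapping genes were named after their values were seen. 1 gene of the lists is not reported here by name. Alternatives were RLE, upper-quartile and total-count scaling, DESeq2 1.42.0, limma-voom (limma 3.58.1), 2 other filters on low counts, a replicate block, leaving out each library, halved counts, a test against 1.5-fold, an assumed coefficient of variation of 0.2 and loess offsets (span 0.3) for exon, coding and, added later, transcript length.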

Additional observations from a re-analysis of the deposited data

How the results depend on the processing

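On halved counts, the median chi-square between replicates was 1.15 (RIP) and 1.19 (input) times that of counting noise, a ratio of variances. It was taken over genes with a pair sum of at least 20. The edgeR tests used the counts as deposited, with a common coefficient of variation of 0.032 beyond counting noise. The spread behind these tests is thus small, and an assumed coefficient of variation of 0.2 left 6 members called higher. The number called higher was 9 under RLE and upper-quartile scaling, both other filters, DESeq2, limma-voom, halved counts and with any 1 library left out, 8 with total counts and with the exon- and coding-length offsets, and 5 with the test against 1.5-fold and with the transcript-length offset. Members called lower were 1 with upper-quartile scaling, total counts and the coding-length offset, and 2 with the exon- and transcript-length offsets, against 0 with TMM. Over all genes, 4210 were called higher and 4426 lower in the test against 1.5-fold, and 4288 lower after the coding-length offset. Pathway genes called higher were 39 in the test against 1.5-fold, and those called lower were 32 with upper-quartile scaling, 35 with total counts and 13 with the test against 1.5-fold and with the assumed variation. Of 180 member values under alternatives, 159 kept direction and call, 11 kept direction but lost the call and 10 changed sign.

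Bmpr1a was at -0.29 with upper-quartile scaling, -0.30 with total counts, -0.034 with the filter of CPM 1, -0.0040 with halved counts, -0.30, -0.10 and -0.61 with the exon-, coding- and transcript-length offsets. Bmpr2 was at -0.11 and -0.24 with the exon- and transcript-length offsets and Acvr2a at -0.076 with the transcript-length offset. With upper-quartile scaling and total counts Inhbb was at -0.13 and -0.14, Fstl1 at -0.085 and -0.091, Strap at -0.0059 and -0.012, Xiap at -0.23 and -0.23 and Cdkn2b at -0.21 and -0.22. With the exon-length offset Amhr2 was at 0.10, Nbl1 at 0.44 and Xiap at -0.50. With the coding-length offset Nbl1 was at 0.71, Fkbp1a at 1.10, Tgif1 at 0.27, Tsc22d1 at 0.54 and Id3 at 0.42. With the transcript-length offset Inhbb was at -0.14, Nbl1 at 0.28, Fkbp1a at 0.39, Tgif1 at 0.30, Id3 at 0.076 and Xiap at -0.65. Cdkn2b was at -0.0074 without input replicate 1, and from there to 0.31 over the left-out libraries. The all-gene median was itself at -0.40 with upper-quartile scaling and with total counts. Apart from what each offset or scaling does by construction, the cause of these changes was not tested.

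The replicate numbers were not shown to pair the libraries: the deviations of RIP 1 and input 1 correlated at 0.0158, and with 2 numbers no more can be said. With the number as a block, 6734 genes were called higher and 6655 lower, and 9 members higher.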

Other observations

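Ins2, an insulin gene that was included with 4 other genes as a marker of tissues other than testis, was not near 0. It had 4.82 and 4.38 CPM in the RIP libraries, against 24.7 and 27.6 CPM in the input libraries. The other 4, Myh6, Sftpc, Alb and Cdh16, stood under 10 CPM in each group, with Myh6 the highest at 7.54 CPM in RIP and 8.92 CPM in input.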
